A study of Mus musculus with 17 samples.

Results

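The Ikaros family consists of 5 zinc finger transcription factors, encoded by Ikzf1 (Ikaros), Ikzf2 (Helios), Ikzf3 (Aiolos), Ikzf4 (Eos) and Ikzf5 (Pegasus). Members were chosen by gene symbol alone, and all 5 were measured, each by 1 probe set, among 22180 genes on the array. RNA of 9 sorted mouse cell populations was hybridised to 17 arrays, 2 for each population and 1 for the early innate lymphoid cell progenitor (EILP). EILP came from bone marrow, as did HSC (hematopoietic stem cells), LMPP (multipotent progenitors primed for lymphoid fates), flt3+ CMP and flt3- CMP (common myeloid progenitors with and without the receptor Flt3), CLP (common progenitors of lymphocytes) and NK (natural killer cells). Thymus gave ETP (early thymic progenitors) and DN3 thymocytes. The described source was a pool of chimeric animals: marrow of TCF-1 GFP reporter donors had been transferred into B6 CD45.1 hosts irradiated with 900 rads, and the cells were taken at 12 weeks. NK cells are not named in that description. The 8 other populations all share the reporter allele and the transplant, and no age is given. Whether the replicates of a population came from different pools is not stated, so the p-values reflect the spread between arrays, which may be technical, and precision is limited by how few arrays there are.

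Ikaros family proteins bind DNA through zinc fingers near the amino end and pair with themselves or with each other through zinc fingers at the carboxyl end. They recruit chromatin complexes, among them the NuRD complex with its ATPases Chd3 and Chd4, and can repress or activate genes. Ikaros is needed for lymphoid development in the mouse, Aiolos for B cell maturation and for late steps of NK cells, and Helios and Eos are best known from regulatory T cells. Pegasus is the most divergent member. 

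Several properties of the arrays touch the results. Values are log2 expression values as the authors deposited them, with array medians from 4.45 to 4.62 and a median over all values of 4.54. Below that median the size of a change is uncertain. Of the measured marker genes of each population, 4 of 4 for HSC, 6 of 6 for NK and 4 of 4 for DN3 were highest in the population they mark. It was 1 of 2 for LMPP and 2 of 4 for EILP. Of the 6 CMP markers, 3 were highest in flt3- CMP and 0 in flt3+ CMP. The CLP markers had their highest mean in CLP, at 9.40 and 9.59, although 0 of 4 were highest there singly, and of the ETP markers 1 of 5 was highest in ETP and 4 in DN3. The EILP markers averaged 7.16 in EILP, close to NK at 7.19 and 7.46 and above all others, which reached 6.11. Neutrophil markers averaged 10.31 to 11.96 in the 13 marrow arrays and 4.13 to 5.56 in the 4 thymus arrays. Y-linked transcripts averaged 7.03 to 7.66 in 5 arrays, those of CLP, DN3 and EILP, and 3.03 to 3.38 in the other 12. Comparisons that cross this split cannot tell it apart from the population.

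Promoter sequence was at hand for Ikzf1 and Ikzf5, from RefSeq, build GRCm38.p6, as windows from 250 bases before to 50 bases after a transcript start. They are shown because the table lists 2 windows for Ikzf1, which the single value per array does not separate. Capitals mark GGGAA, the core of the Ikaros recognition sequence, read on either strand, so that TTCCC is its reverse. The first line lies at chr11:11685675-11685974 on the plus strand, the next at chr11:11689927-11690226 on the plus strand, and the last at chr7:131410429-131410728 on the minus strand.
Ikzf1 first window: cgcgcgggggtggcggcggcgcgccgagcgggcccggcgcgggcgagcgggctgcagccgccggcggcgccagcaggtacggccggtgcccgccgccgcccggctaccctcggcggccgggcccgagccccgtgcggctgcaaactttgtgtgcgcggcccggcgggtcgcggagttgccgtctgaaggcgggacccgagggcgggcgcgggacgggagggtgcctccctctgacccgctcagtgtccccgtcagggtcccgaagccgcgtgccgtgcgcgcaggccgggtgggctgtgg
Ikzf1 second window: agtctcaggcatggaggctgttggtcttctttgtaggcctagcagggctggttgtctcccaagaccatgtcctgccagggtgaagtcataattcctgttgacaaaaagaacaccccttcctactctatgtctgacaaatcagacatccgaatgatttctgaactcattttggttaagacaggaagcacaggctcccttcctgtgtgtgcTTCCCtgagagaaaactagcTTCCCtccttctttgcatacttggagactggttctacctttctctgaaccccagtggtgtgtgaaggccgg
Ikzf5 window: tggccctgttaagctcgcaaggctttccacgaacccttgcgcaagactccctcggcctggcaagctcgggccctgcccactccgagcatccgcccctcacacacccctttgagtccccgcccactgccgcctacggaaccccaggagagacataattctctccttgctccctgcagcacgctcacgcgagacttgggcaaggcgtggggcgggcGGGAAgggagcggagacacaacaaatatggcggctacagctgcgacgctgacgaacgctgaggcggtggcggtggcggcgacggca
The first Ikzf1 window had a GC content of 81.3% with 52 CG pairs, against a median GC content of 52.7% over 32851 windows, and at least that much in 0.654% of them. The second had 49.0% with 2 CG pairs. It held 2 matches to GGGAA, Ikzf5 held 1 and the first Ikzf1 window held 0. Since 62.7% of all windows held a match, these matches are a description and no sign of binding.

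Ikzf2 had the widest pattern relative to its error. Its log2 values were 4.83 and 4.47 in CLP, 6.63 in EILP and 6.82 and 6.74 in NK. They were 7.33 and 7.50 in flt3+ CMP, 7.85 and 7.63 in flt3- CMP, 7.49 and 7.99 in LMPP, and 8.30 and 7.89 in HSC. In thymus they were 8.29 and 8.36 in ETP and 8.51 and 8.12 in DN3. Both CLP arrays thus lay apart from all other arrays by more than any replicates of 1 population differed. EILP and NK came next, and the remaining 6 populations lay between 7.33 and 8.51. These were not all alike: by limma, ETP and DN3 exceeded flt3+ CMP by 0.91 ± 0.21 and 0.90 ± 0.21 (adjusted p = 0.02 each). The differences of NK and EILP from flt3+ CMP did not pass (adjusted p = 0.078 and 0.12). In bulk samples, fewer cells that express a gene and less RNA per cell cannot be told apart.

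In a moderated F test over the 9 populations (limma, Benjamini-Hochberg over all genes), Ikzf2 varied beyond the spread between arrays, with F = 60.2 and adjusted p = 4.1e-07. By the same test Ikzf3 gave F = 44.8 (adjusted p = 1.7e-06), Ikzf4 9.64 (adjusted p = 0.0023) and Ikzf1 6.07 (adjusted p = 0.014). Ikzf5 did not pass, with F = 2.25 and adjusted p = 0.22. So 4 of 5 members passed, where 22.7% of all genes did. Ikzf1 did not pass without HSC replicate 2 (F = 3.66, adjusted p = 0.08), and Ikzf4 did not pass over the 12 arrays with low Y-linked transcripts, which include no DN3 (F = 2.56, adjusted p = 0.26). The population means of Ikzf2 spanned 3.68 log2 units and those of Ikzf3 4.10, widths reached by 1.49% and 1.13% of genes. Spans were 1.28 for Ikzf4, 1.22 for Ikzf1 and 0.82 for Ikzf5, against a median of 0.63 over all genes.

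**Figure D1:**
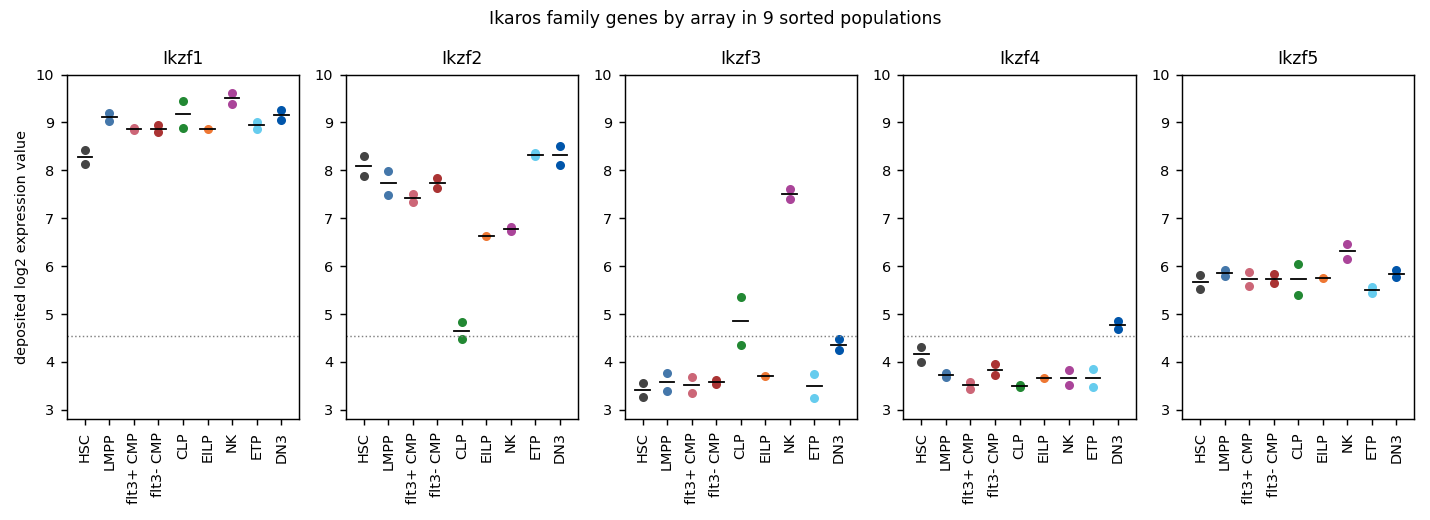
Deposited log2 expression value (vertical axis) of each Ikaros family gene in every array of the 9 populations (horizontal axis), with points for arrays, black bars for population means and a dotted line at 4.54, the median of all values. Ikzf2 is lowest in CLP (4.83 and 4.47), Ikzf3 highest in NK (7.61 and 7.41) and Ikzf4 highest in DN3 (4.86 and 4.68), and heights cannot be compared between genes because each has its own probes.

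Ikzf2 was called lower in CLP than in each of the 8 other populations at an adjusted p under 0.05. A single gene of 22180, 0.00451%, met that criterion, and it was Ikzf2, a criterion set after its values had been seen. The smallest of the 8 differences was to EILP and the largest, 3.68 ± 0.21 (SE, adjusted p = 5.9e-08), to ETP. The comparison with EILP was the narrow step, since 9 genes of the array were called higher in EILP than in CLP, and 9 genes were called lower in CLP than in the 7 replicated populations. Ikzf2 was also the only gene to meet the criterion under the other scalings, probe set choices, prior settings and replicate block, and in the fits that left out 1 replicated array. For this criterion, neither adjustment over all pairs together nor a fit of only the populations compared was run. The call against EILP, which the criterion needs, was lost with only the populations compared and within the arrays with high Y-linked transcripts.

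The step from LMPP to CLP separates a multipotent progenitor from one restricted largely to lymphoid fates. Here 2 of 5 members were called, against 5.96% of all genes, and in opposite directions. Ikzf2 fell by 3.09 ± 0.21 on the log2 scale (adjusted p = 1.7e-06), 8.51-fold, and its arrays did not overlap. Ikzf3 was higher in CLP by 1.27 ± 0.28 (adjusted p = 0.014), with 5.35 and 4.36 in CLP against 3.77 and 3.40 in LMPP. That call was lost without CLP replicate 1 (0.78, adjusted p = 0.15) and without LMPP replicate 2 (1.09, adjusted p = 0.12), and LMPP lay below the median of all values. Ikzf1 differed by 0.05 ± 0.19, Ikzf4 by -0.24 ± 0.18 and Ikzf5 by -0.12 ± 0.21, none of which passed.

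CLP and LMPP also differed in the Y-linked transcripts and in markers of other cell types. Both red cell markers measured were called higher in CLP, Rhag by 2.41 ± 0.26 (adjusted p = 9e-05) and Slc4a1 by 2.30 ± 0.30 (adjusted p = 0.00038), and their mean was 7.91 and 8.06 in CLP against 5.51 and 5.75 in LMPP. Of 4 macrophage markers, 2 were called higher in CLP, Adgre1 by 1.5 ± 0.23 (adjusted p = 0.0016) and Vcam1 by 0.87 ± 0.19 (adjusted p = 0.013), with list means of 6.21 and 6.44 against 5.25 and 5.67. Of 5 neutrophil markers, 2 were called higher, with list means of 11.78 and 11.90 against 11.12 and 11.16. In EILP the means were 7.87 for red cell, 6.65 for macrophage and 11.96 for neutrophil markers. The part of these markers and of the Y-linked split in the Ikzf2 difference was not tested. Within the 5 arrays with high Y-linked transcripts, fitted alone, Ikzf2 was 3.66 higher in DN3 than in CLP (adjusted p = 0.00011) and 1.98 higher in EILP than in CLP, where the call was lost (adjusted p = 0.081).

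EILP was compared with CLP, LMPP, NK and ETP to place the innate lymphoid progenitor among its neighbours. Ikzf2, at 6.63, stood 1.98 ± 0.26 above CLP (adjusted p = 0.0035), 3.93-fold, and 1.70 ± 0.26 below ETP (adjusted p = 0.00073). It was lower than in LMPP by 1.11 ± 0.26 (adjusted p = 0.028). Between EILP and NK it differed by -0.15 ± 0.26, with a 95% interval from -0.71 to 0.40. EILP thus lay between CLP and LMPP, and both of these calls depended on the fit. The difference from CLP had an adjusted p = 0.2 with the 3 arrays compared alone, and the difference from LMPP was -0.87 (adjusted p = 0.16) without LMPP replicate 2. For EILP against CLP the count was 1 of 5 members, beside 0.365% of all genes. It was 1 of 5 against LMPP (3.9% of all genes) and 1 of 5 against ETP (8.19%).

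Ikzf3, at 3.71 in EILP, was 3.80 ± 0.34 below NK (adjusted p = 1.6e-05), 13.9-fold, and it was the 1 member of 5 called there, beside 3.48% of all genes. Because EILP lay below the median of all values, the size of that difference is uncertain. Against CLP it was -1.15 ± 0.34 (adjusted p = 0.27), which did not pass, and against LMPP 0.13 ± 0.34. Ikzf1, Ikzf4 and Ikzf5 did not pass in any of the 4 EILP comparisons. Their 95% intervals against CLP ran from -0.81 to 0.19 for Ikzf1, from -0.32 to 0.64 for Ikzf4 and from -0.52 to 0.59 for Ikzf5. The fit takes the spread of the lone EILP array from the replicated populations.

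**Figure D2:**
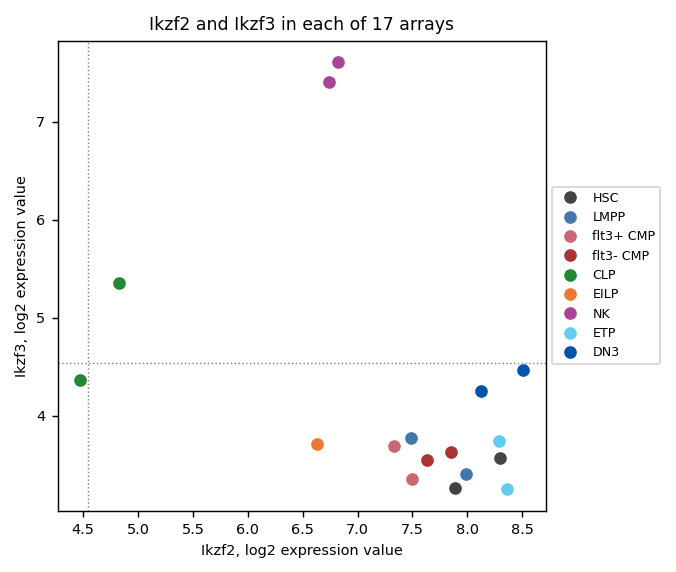
Log2 expression values of Ikzf2 (horizontal axis) and Ikzf3 (vertical axis) in each of the 17 arrays, coloured by population, with dotted lines at the median of all values, 4.54. The NK arrays stand at the top with 7.61 and 7.41 for Ikzf3, the CLP arrays at the left with 4.83 and 4.47 for Ikzf2, and EILP lies below NK at a similar Ikzf2 value, 6.63.

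Ikzf3, the gene of Aiolos, was highest in NK, at 7.61 and 7.41. The next values were 5.35 and 4.36 in CLP and 4.47 and 4.25 in DN3. All other arrays lay between 3.25 and 3.77, so 14 of 17 arrays were below the median of all values. NK was called higher than each of the 8 other populations, which 0.717% of genes were, a criterion set after the values of Ikzf3 had been seen. NK exceeded CLP by 2.65 ± 0.28 (adjusted p = 4.4e-05), 6.3-fold, with no overlap. Below NK, no difference between neighbours in the order of means was called: CLP against DN3 differed by 0.50 ± 0.28 (adjusted p = 0.34) and DN3 against EILP by 0.65 ± 0.34 (adjusted p = 0.31). The 6 populations from EILP down to HSC lay within 3.71 and 3.42. Between populations that are not neighbours, CLP was called higher than flt3- CMP, LMPP, flt3+ CMP, ETP and HSC. The difference from HSC was 1.44 ± 0.28 (adjusted p = 0.0052). Those populations lay below the median of all values, and the call against LMPP was lost without CLP replicate 1.

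For NK against CLP, 2 of 5 members were called, both higher in NK, beside 6.39% of all genes. The other was Ikzf2, by 2.13 ± 0.21 (adjusted p = 2.6e-05). Ikzf5 was higher by 0.59 ± 0.21 and did not pass (adjusted p = 0.12), except without CLP replicate 2 (0.91, adjusted p = 0.038). Y-linked transcripts were high in CLP and low in NK, so this comparison crosses the split. Over the 12 arrays on the NK side alone, the F test of Ikzf3 gave 114 (adjusted p = 1.5e-06). Those arrays include no CLP, so that test cannot address the difference between NK and CLP. Markers of other lymphocytes also differed between NK and CLP. Of 3 mature B cell markers 1 was called higher in NK, Ms4a1 by 0.78 ± 0.19 (adjusted p = 0.027), and 0 of 3 exceeded the median of all values there, with list means of 3.74 and 3.76 in NK against 3.39 and 3.43 in CLP. Of 3 mature T cell markers 1 was called higher, Cd28 by 1.27 ± 0.31 (adjusted p = 0.026), with list means of 5.38 and 5.48 against 4.67 and 4.98. The CD3 chain genes of the T cell receptor complex, Cd3g, by 4.41 ± 0.27 (adjusted p = 1.7e-07), and Cd3e, by 1.08 ± 0.25 (adjusted p = 0.019), were higher in NK too. The part of these markers in the Ikzf3 difference was not tested.

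The 2 CLP arrays differed by 0.98 in Ikzf3, a gap that 1.06% of genes reached between them. Of 8 B lineage genes, chosen for this after the gap was seen, 7 were lower in replicate 1, where Ikzf3 was higher. Their median difference, replicate 1 minus replicate 2, was -0.56, against 0.01 over all genes. Vpreb1, among the 7, lay below the median of all values, at 2.99 and 3.18. The source of the Ikzf3 gap was not tested. Cd79a, a chain of the B cell receptor, was at 6.06 and 7.45, and Pax5, the factor that fixes B cell identity, at 6.26 and 7.62. Ikzf1 was at 8.89 and 9.45 and Ikzf5 at 5.40 and 6.05, so these members also differed between the CLP arrays, in the direction of the B lineage genes. Ikzf2, at 4.83 and 4.47, was higher in replicate 1 as Ikzf3 was, and Ikzf4 was at 3.47 and 3.52.

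**Figure D3:**
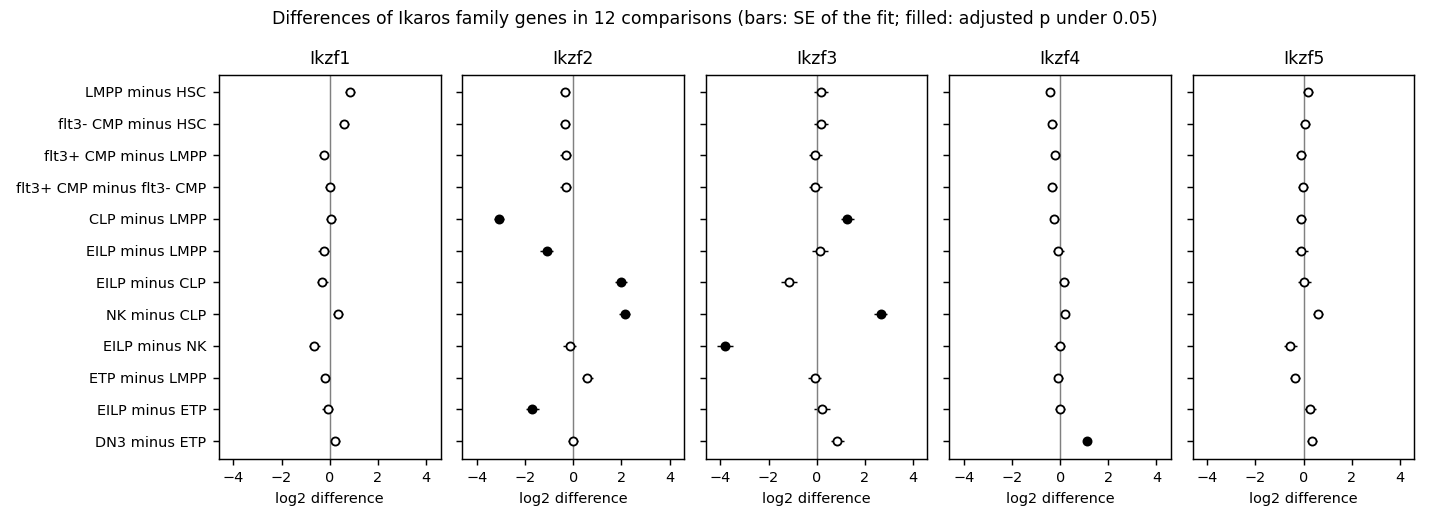
Log2 differences (horizontal axis) of the 5 genes in 12 comparisons (rows), with bars for the SE of the fit and filled points for adjusted p under 0.05. Filled points occur for Ikzf2 in 5 comparisons, Ikzf3 in 3 and Ikzf4 in 1, and in no comparison for Ikzf1 and Ikzf5.

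Ikzf4, the gene of Eos, was highest in DN3, at 4.86 and 4.68, the 2 arrays of 17 above the median of all values. HSC followed at 4.0 and 4.32, and the other arrays lay between 3.44 and 3.95. DN3 exceeded ETP by 1.11 ± 0.18 (adjusted p = 0.0015), 2.15-fold, and was called higher than 7 of the 8 other populations. The exception was HSC, where the difference of 0.61 ± 0.18 gave an adjusted p = 0.052. Of all genes, 1.3% were called higher in DN3 than in at least 7 populations, a criterion set after the values of Ikzf4 had been seen. Depending on which array was left out, 6 to 8 populations were called lower than DN3. CLP was the lowest, at 3.47 and 3.52, and was also called lower than HSC by 0.66 ± 0.18 (adjusted p = 0.041). The DN3 and HSC arrays did not overlap, and the unadjusted 95% interval of that difference ran from 0.22 to 1.00. Below HSC the gaps between neighbours in the order of means were at most 0.32, and none was called.

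The step from ETP to DN3 is the passage to T cell commitment in the thymus. Here 1 of 5 members was called, Ikzf4, beside 8.73% of all genes. Ikzf2 differed by -0.02 ± 0.21, with a 95% interval from -0.47 to 0.44. Ikzf3 was at 4.47 and 4.25 in DN3 against 3.74 and 3.25 in ETP. That difference, 0.86 ± 0.28, missed the threshold with an adjusted p = 0.076, and passed it with the replicate number as a block (adjusted p = 0.014) and without CLP replicate 1 or CLP replicate 2 (adjusted p = 0.023 each). ETP and DN3 lie on different sides of the Y-linked split. Among the arrays with high Y-linked transcripts, DN3 exceeded CLP in Ikzf4 by 1.28 (adjusted p = 0.0035).

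Ikzf1, the gene of Ikaros itself, was high in all 17 arrays, from 8.14 to 9.62. HSC was lowest at 8.43 and 8.14 and NK highest at 9.62 and 9.39. HSC did not overlap with any other population. Ikzf1 exceeded HSC by 1.22 ± 0.19 in NK (adjusted p = 0.0011), by 0.89 ± 0.19 in CLP (adjusted p = 0.011) and by 0.88 ± 0.19 in DN3 (adjusted p = 0.0091). Of all genes, 8.76%, 7.65% and 9.14% were called in these comparisons. Those with CLP and DN3 cross the Y-linked split, and that with NK does not. NK was also 0.64 ± 0.19 above flt3- CMP (adjusted p = 0.046), a comparison in which 11.9% of genes were called. These 4 of 36 pairs were the calls of Ikzf1, and the count was 2 without HSC replicate 2 or DN3 replicate 2 and 7 without CLP replicate 1. From LMPP at 9.04 and 9.20 to HSC the difference was 0.84 ± 0.19, which missed the threshold (adjusted p = 0.087).

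Ikzf5, the gene of Pegasus, was the flattest member, from 5.40 to 6.47 over the 17 arrays. NK, at 6.47 and 6.15, lay above every other array. Of 36 pairs, 1 was called, NK above ETP by 0.82 ± 0.21 (adjusted p = 0.02), where 11.2% of genes were called, and 37.5% of genes were called in at least 1 of the pairs. That call was lost without NK replicate 1, ETP replicate 1 or ETP replicate 2. No difference between neighbours in the order of means was called, although NK did not overlap with LMPP, the next population, and lay 0.46 ± 0.21 above it (adjusted p = 0.23). A difference that does not pass is not shown to be absent, and between CLP and LMPP the 95% interval ran from -0.58 to 0.33.

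The earliest branches showed no called member. By limma, 0 of 5 members were called from HSC to LMPP (0.6% of all genes), where Ikzf1 and Ikzf4 had an unadjusted p under 0.05. It was 0 of 5 from HSC to flt3- CMP (4.22% of all genes), with 1 member, Ikzf1, under that unadjusted limit. For flt3+ CMP against LMPP (0.442% of all genes) and flt3+ against flt3- CMP (0.108%) it was 0 of 5 at both limits. From LMPP to ETP, 0 of 5 were called beside 3.42% of all genes, and Ikzf2 alone was under the unadjusted limit, higher in ETP by 0.59 ± 0.21. Where few genes of the array were called, a count of 0 of 5 says little about the family.

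Over the 9 population means, Ikzf3 and Ikzf5 ran most nearly together among the members (Pearson r = 0.87, Spearman rho = 0.63), followed by Ikzf1 and Ikzf3 (0.73 and 0.75). Ikzf2 and Ikzf3 ran apart (-0.40 and -0.60), as did Ikzf2 and Ikzf1 (-0.36 and -0.17). These values describe 9 points from 1 set of arrays, and NK weighs heavily in those of Ikzf3. Ikzf1, high everywhere, and Ikzf2, low in CLP, thus had different orders of populations.

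Genes with the most similar pattern were ranked by Pearson correlation over the 9 population means among 5022 genes that varied by at least 1 log2 unit. Genes ranked this way tend to share the highest or lowest population of the member, so that sharing is no separate result. For Ikzf3 they were Cd2 (r = 0.983), an adhesion receptor of T and NK cells, Zhx2 (0.965), a zinc finger and homeobox factor, Gimap3 (0.963), a GTPase of lymphocytes, Cd226 (0.955), an activating receptor of NK and T cells, and Sp4 (0.954), a zinc finger factor. All 5 were highest in NK. For Ikzf4 they were Lpar4 (0.976), a receptor for lysophosphatidic acid, Cntrob (0.965), a centriole protein, Rcor2 (0.956), a corepressor subunit, Kyat1 (0.954) and Akr1c12 (0.942), both metabolic enzymes. All 5 were highest in DN3.

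For Ikzf2 the nearest were Ccnq (0.950), a cyclin, Ankrd10 (0.905), Epb41l4aos (0.904), an antisense transcript, Trim32 (0.897), a ubiquitin ligase, and Tbc1d19 (0.897). All were lowest in CLP, but with shallower spans, such as 8.39 in CLP to 9.46 in ETP for Ccnq. For Ikzf1 they were Tmub2 (0.920), Ccdc88c (0.878), Kif13b (0.878), a kinesin motor, Tpm4 (0.869), a tropomyosin of the actin skeleton, and Tatdn2 (0.863). All were lowest in HSC and highest in NK. Ranked over the 17 arrays in place of 9 means, 2 of the 5 stayed for Ikzf1, 2 for Ikzf2, 3 for Ikzf3 and 1 for Ikzf4, and ranked by Spearman correlation 0, 0, 0 and 2 stayed, so the names depend on the measure.

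**Figure D4:**
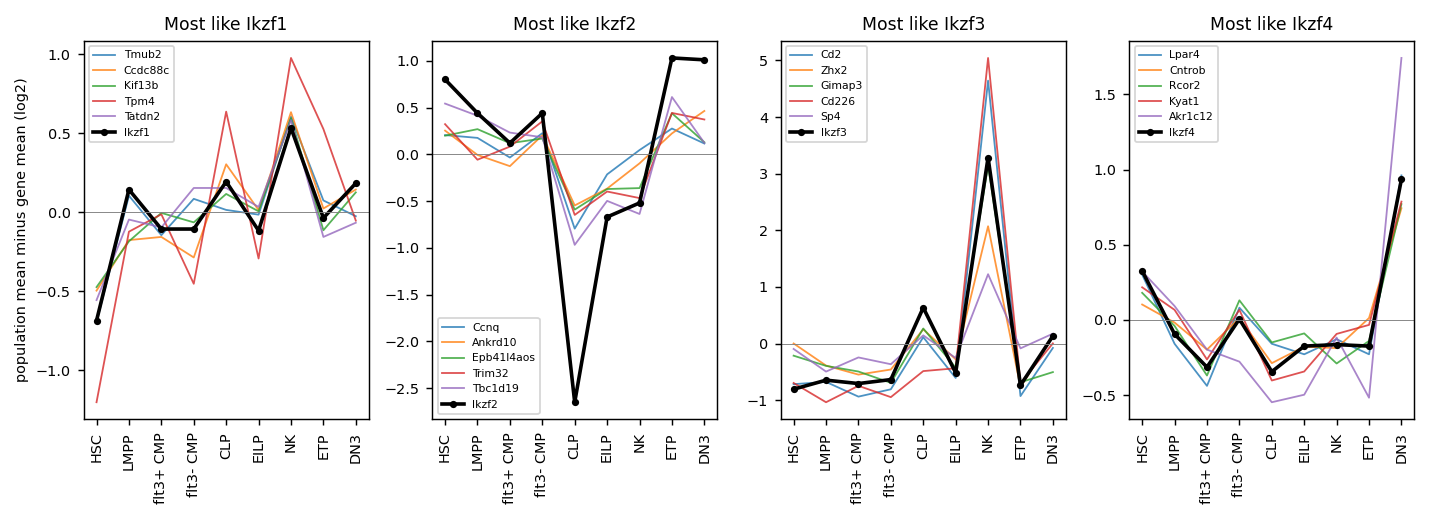
Population means minus each gene's own mean (vertical axis, log2, with a scale of its own in each panel) for Ikzf1, Ikzf2, Ikzf3 and Ikzf4 (thick black lines) and the 5 genes most like each (thin lines) over the 9 populations. The dip of Ikzf2 in CLP is deeper than that of the genes most like it, and the peak of Ikzf3 in NK lies between those of Cd226 and Cd2 above and Gimap3, Zhx2 and Sp4 below.

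Chromatin partners of Ikaros proteins, a list of 23 genes, are shared by many factors. Chd3, an ATPase of the NuRD complex, was lowest in EILP at 9.58, with CLP next at 9.97 and 10.22 and all other arrays between 10.34 and 11.34. It fell by 1.39 ± 0.18 from LMPP to EILP (adjusted p = 0.00082) and by 0.87 ± 0.15 from LMPP to CLP (adjusted p = 0.0034). Its partner ATPase Chd4 lay between 8.20 and 8.89 in all arrays and was called in none of the 12 comparisons. Smarca4, the BRG1 ATPase of SWI/SNF complexes, was highest in DN3 at 9.85 and 9.88 and in CLP at 8.91 and 9.24, and lowest in EILP at 7.79. It was lower in EILP than in CLP by 1.29 ± 0.23 (adjusted p = 0.03), a call lost with only the populations compared. Smarca4 was higher in DN3 than in ETP by 1.53 ± 0.19 (adjusted p = 0.00013).

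From ETP to DN3, 6 of the 23 partners rose and 0 fell, with a median of 0.53 against -0.03 over all genes, of which 8.73% were called (1154 higher and 782 lower). Ctbp1, a corepressor that Ikaros binds, rose by 1.33 ± 0.30 (adjusted p = 0.014) and Mta2, a NuRD subunit, by 0.94 ± 0.18 (adjusted p = 0.0053). From LMPP to CLP, 2 rose and 1 fell, beside 5.96% of all genes called (median 0.06 against -0.05 over all genes). Between EILP and CLP, 0 were higher and 1 lower, beside 0.365% of all genes called (median -0.22 against 0.05). Crbn, the ubiquitin ligase adaptor through which thalidomide-like drugs destroy Ikaros and Aiolos in human cells, lay between 7.30 and 8.46 and was called in none of the 12 comparisons.

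Genes described as bound or regulated by Ikaros or Aiolos in lymphoid cells formed a list of 24 measured genes. From LMPP to CLP, where Ikzf2 fell, 10 of 24 rose and 1 fell, with a median of 0.22 against -0.05 over all genes, of which 5.96% were called (832 higher and 489 lower). The 1 that fell was Flt3, a cytokine receptor of early progenitors. Between EILP and CLP, where Ikzf2 was higher in EILP, 0 of 24 were higher and 9 lower, with a median of -0.61 against 0.05 over all genes, of which 0.365% were called (9 higher and 72 lower). EILP had 1 array, and the calls between EILP and CLP were lost with only the populations compared. The comparisons of CLP with LMPP and with EILP share the CLP arrays, so they are not independent. The list was chosen with earlier results known. Il7r, Flt3 and Dntt also served as CLP markers, and others of the list, such as Cd79a and Blnk, are B lineage genes. The list thus overlaps with what marks CLP, and a relation of these counts to Ikzf2 was not tested. Between NK and CLP, 2 were higher and 9 lower, with a median of -0.58 against 0.09 over all genes, of which 6.39% were called (715 higher and 703 lower).

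Among those 9 genes lower in EILP, Il7r, the interleukin 7 receptor, was at 9.65 and 9.78 in CLP and 6.06 in EILP. Vpreb2, part of the surrogate light chain of the pre-B receptor, was at 8.66 and 8.26 in CLP, 4.93 in EILP and at most 5.56 elsewhere. Dntt, the terminal transferase that adds bases at antigen receptor joints, was at 10.60 and 10.74 in CLP and 7.58 in EILP. Dntt was as high in LMPP (10.56 and 10.83), ETP (10.92 and 10.98) and DN3 (11.14 and 11.35), where Ikzf2 was high, so its level did not run opposite to Ikzf2 over all populations. Il7r was likewise high in DN3, at 9.65 and 10.05.

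The RefSeq promoter windows (GRCm38.p6) of these 3 genes are shown as a description, with GGGAA and its reverse TTCCC in capitals. They lie at chr15:9529827-9530126 on the minus strand for Il7r, chr16:17980315-17980614 on the plus strand for Vpreb2 and chr19:41029025-41029324 on the plus strand for Dntt.
Il7r: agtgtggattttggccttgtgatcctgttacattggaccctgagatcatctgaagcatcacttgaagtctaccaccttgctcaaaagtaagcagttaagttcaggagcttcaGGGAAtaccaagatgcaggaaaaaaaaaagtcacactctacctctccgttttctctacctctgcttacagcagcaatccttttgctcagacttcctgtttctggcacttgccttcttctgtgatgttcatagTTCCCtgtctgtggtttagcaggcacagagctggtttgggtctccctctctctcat
Vpreb2: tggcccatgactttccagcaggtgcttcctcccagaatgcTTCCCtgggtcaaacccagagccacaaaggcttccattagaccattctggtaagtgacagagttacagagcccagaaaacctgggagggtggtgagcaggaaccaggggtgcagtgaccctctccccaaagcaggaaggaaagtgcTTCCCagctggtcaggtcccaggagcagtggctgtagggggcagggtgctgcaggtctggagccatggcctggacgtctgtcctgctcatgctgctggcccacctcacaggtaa
Dntt: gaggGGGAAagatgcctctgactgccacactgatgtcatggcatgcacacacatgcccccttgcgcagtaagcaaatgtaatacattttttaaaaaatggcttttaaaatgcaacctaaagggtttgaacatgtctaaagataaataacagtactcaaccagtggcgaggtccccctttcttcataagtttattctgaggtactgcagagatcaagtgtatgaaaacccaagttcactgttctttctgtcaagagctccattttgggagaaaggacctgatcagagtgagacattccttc
Il7r and Vpreb2 held 2 matches each and Dntt 1. Of 23 windows for 20 of the listed targets, 16 held a match (69.6%), against 62.7% of all windows. These matches are no sign of binding, and whether Ikzf2 acts on these genes was not tested.

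Among 20 transcription factors of the same progenitors, the patterns of the members could be placed beside those of lineage factors. The correlations that follow are over 9 population means of 1 set of arrays, as a description. A population far from the others weighs heavily in them. Ikzf2 ran most opposite to Pax5 (r = -0.90) and, among the targets, to Cd79a (-0.91), both high in CLP. Tox, a factor of innate lymphoid and T cells, shared the low value in CLP with Ikzf2, at 4.51 and 4.79, but was as low in flt3- CMP, at 4.67 and 4.79, where Ikzf2 was not (r = 0.51). Ikzf3 ran closest to Eomes (0.93) and Tbx21 (0.89), the T-box factors of NK cells, both highest in NK. Ikzf5, also highest in NK, ran closest to the same factors (0.89 and 0.87), so this was not particular to Ikzf3. Ikzf4 ran closest to Bcl11b (0.86), the T cell commitment factor, which stood at 8.82 and 8.85 in DN3 and at most at 4.79 elsewhere.

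**Figure D5:**
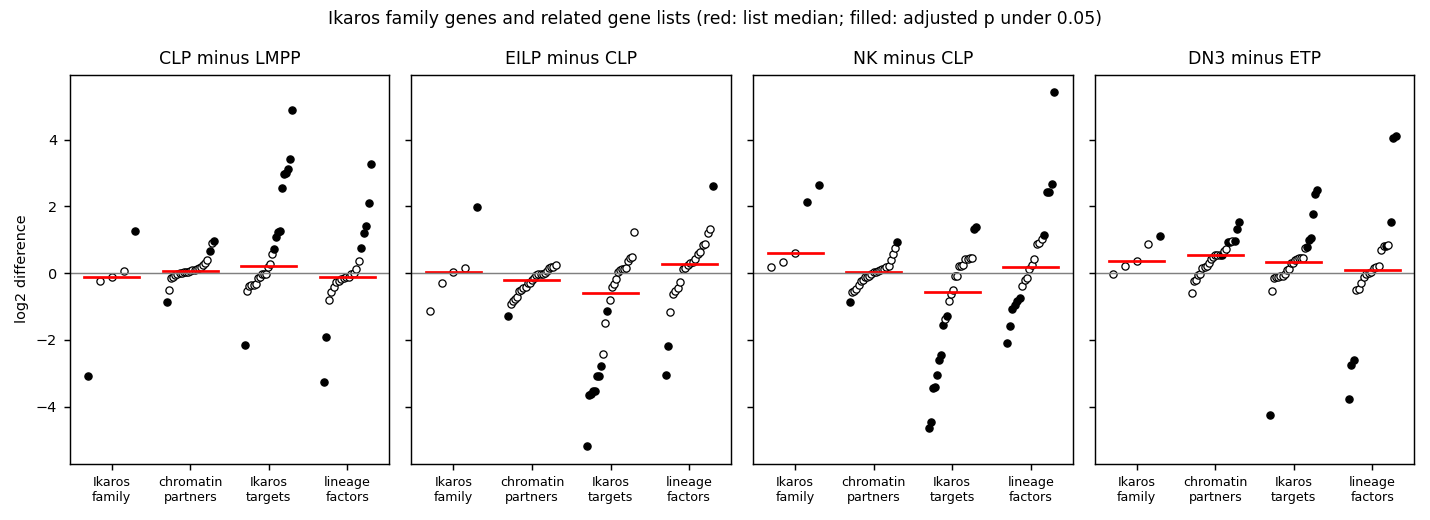
Log2 differences (vertical axis) in 4 comparisons for the 5 Ikaros family genes, 23 chromatin partners, 24 Ikaros targets and 20 lineage factors (horizontal axis), each point a gene, filled where adjusted p was under 0.05, with red bars at list medians. Targets lie mostly above 0 from LMPP to CLP (10 called higher) and mostly below it for EILP minus CLP (9 called lower), and chromatin partners lie mostly above 0 from ETP to DN3 (6 called higher).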

How the data were processed

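Affymetrix Mouse Gene 2.0 ST arrays were hybridised with amplified RNA of sorted cells, per the labels' protocols. The authors deposited 1 log2 value for each probe set and array, made with Affymetrix Expression Console per the submitters' processing notes (version and algorithm not given in the sources used here). That the scale is log2 rests on the range of the values. Of 41345 probe sets, the 23521 with 1 gene symbol were used, 1814 with several symbols and 16010 with none were not, and the brightest probe set of a gene was kept, which left 22180 genes. limma 3.58.1 (lmFit and eBayes, R 4.3.3) estimated the 9 population means from the 17 arrays together, with 8 residual and 5.33 prior degrees of freedom. A gene was called where its two-sided p, adjusted by Benjamini-Hochberg across the genes of that comparison, was under 0.05. Differences are of log2 means with the SE of the fit, and folds are 2 to their power. The fitting code was first tested on simulated data.

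Members, gene lists and comparisons were chosen with earlier results of these data known. The rule for named genes was the 5 members, up to 6 called genes of each of 3 lists per comparison, and the 5 genes most like each member; Chd4, Crbn and the B lineage genes set beside Ikzf3 in CLP were named after their values were seen. Those lists held 23 chromatin partners, 24 of 26 targets and 20 lineage factors. Marker genes of populations and cell types, among them Cd3g and Cd3e, were named outside that rule. Replicate numbers do not pair samples here. Alternatives were median centring, quantile normalization, dim genes left out, the mean of probe sets, all probe sets, an intensity trend, a robust prior, only the populations compared, a replicate block, adjustment over all 36 pairs together, and each replicated array left out. Fits within each side of the Y-linked split were added after seeing the data.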

Additional observations from a re-analysis of the deposited data

How the results depend on the processing

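In the 12 comparisons, no called difference of an Ikaros family gene changed sign under any alternative run. From LMPP to CLP, 2 members were called, and 1 with dim genes left out, with all probe sets or with only the populations compared, and 1 to 2 when each array was left out. For EILP against LMPP the count of 1 became 0 with all probe sets or with only the populations compared, and was 0 to 1 with arrays left out. For EILP against CLP the 1 call, Ikzf2, was lost (0) with only the populations compared and over the 5 arrays with high Y-linked transcripts (1.98, adjusted p = 0.081). Leaving out dim genes removes Ikzf3 and Ikzf4 from the test, which took NK against CLP from 2 to 1, EILP against NK from 1 to 0 and DN3 against ETP from 1 to 0. With arrays left out, DN3 against ETP gave 1 to 2 and NK against CLP 2 to 3. The replicate block gave 2 for DN3 against ETP, through Ikzf3, and changed no other member's call in the 12 comparisons. Replicate numbers share no animal in the labels, and differences of replicate 1 and 2 correlated between populations at -0.07 to 0.09, so the block is only a check, with EILP set midway.

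The F test of Ikzf1 ranged from 3.66 to 8.64 with arrays left out, and that of Ikzf4 was 2.56 over the 12 arrays with low Y-linked transcripts. Pairs called ranged from 2 to 7 for Ikzf1, 18 to 20 for Ikzf2, 12 to 19 for Ikzf3, 6 to 9 for Ikzf4 and 0 to 3 for Ikzf5 with arrays left out, and Ikzf5 had 2 with quantile normalization. Counts over all genes were mostly lowest with only the populations compared. Over the alternatives other than left-out arrays they ranged from 0 to 88 for EILP minus CLP (81 as reported), 125 to 836 for EILP minus NK (772), 564 to 1635 for NK minus CLP (1418), 855 to 2001 for EILP minus ETP (1817), 1083 to 2086 for DN3 minus ETP (1936), 315 to 832 for ETP minus LMPP (759), 29 to 138 for LMPP minus HSC (133), 18 to 115 for flt3+ CMP minus LMPP (98) and 1 to 25 for flt3+ CMP minus flt3- CMP (24, and 6 with the replicate block). With arrays left out, flt3+ CMP minus flt3- CMP gave 1 to 37 (37 without ETP replicate 1 or 2), flt3- CMP minus HSC 226 to 1093 (935 as reported), CLP minus LMPP 636 to 1472 (1321) and EILP minus LMPP 477 to 960 (864). The cause of these shifts was not tested. Signal near background limits Ikzf3 and Ikzf4, which lay below the median of all values in 14 and 15 of 17 arrays.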

Other observations

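From LMPP to CLP, 5 of 20 lineage factors rose and 2 fell, with a median of -0.13 against -0.05 over all genes, of which 5.96% were called. Lef1, a partner of TCF-1, rose by 3.26 ± 0.23 (limma, adjusted p = 2.1e-06) and Tcf3, the gene of the E proteins E12 and E47, by 1.20 ± 0.21 (adjusted p = 0.0033), while Meis1, a factor of stem cells, fell by 3.26 ± 0.19 (adjusted p = 4.5e-07). The fall of Ikzf2 over the same step, 3.09 ± 0.21, was of the size of that of Meis1. In EILP, Meis1 was at 6.06, near CLP at 5.93, whereas Ikzf2 was at 6.63 against 4.65 in CLP.

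Mta3, a NuRD subunit, was highest in thymus, at 8.22 and 8.55 in ETP and 8.29 and 8.36 in DN3, and lowest in EILP at 6.66, a difference of -1.73 ± 0.27 between EILP and ETP (adjusted p = 0.00096). Of the 23 chromatin partners, 1 was higher and 4 were lower in EILP than in ETP, with a median of -0.19 against -0.06 over all genes, of which 8.19% were called (1062 higher and 755 lower).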
